A study of Mus musculus with 2 samples.

Results

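Gpnmb-positive macrophages of the mouse liver were described among nonparenchymal cells (NPCs) of mice with diet-induced nonalcoholic steatohepatitis (NASH) and of control mice. The members were chosen by their own transcripts, counted as unique molecular identifiers (UMIs). A cell of at least 500 UMIs and 200 genes was a member when it held at least 2 UMIs of *Gpnmb*, at least 2 UMIs summed over the macrophage genes *Lyz2*, *C1qa*, *C1qb*, *Csf1r*, *Lgals3* and *Mpeg1*, and no UMI of the lymphocyte genes *Cd3e* and *Cd79a*. Of 7919 kept cells 115 were members, 112 of 3710 in the NASH library and 3 of 4209 in the control library. NASH mice were male C57BL/6 mice given feed without methionine and choline (the MCD diet) from an age of 8 weeks, over 6 weeks, and control mice of the same sex, strain and age received a low-fat standard diet for the same time. NPCs of 3 mice were pooled per diet and captured on the BD Rhapsody platform, which labels the transcripts of each cell in a microwell. Each diet was therefore represented by 1 library, so that no test between diets was possible, no p-value was computed, and how many of the 3 mice contributed members could not be told. The study itself compared endothelial cells of these livers, and the members are a minor class among the other NPCs.

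Lipid-associated macrophages are known from obese adipose tissue, atherosclerotic plaques and steatotic livers, where they gather around lipid-laden or dying cells, take up lipid and break it down in lysosomes. In the liver they are known to arise largely from recruited monocytes, whereas Kupffer cells are the long-lived resident macrophages of the sinusoids. *Gpnmb* encodes a transmembrane glycoprotein of lysosomes and melanosomes, *Cd9* a tetraspanin, *Fabp5* a fatty acid binding protein, *Lgals3* a galactose-binding lectin and *Mmp12* the macrophage elastase. Lipid itself was not measured in these cells, so the name stands for the genes only.

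In GRCm38 coordinates, with genes as annotated by GENCODE M21, *Gpnmb* lies at chr6:49036546-49070929 on the plus strand, *Cd9* at chr6:125460266-125494791 on the minus strand and *Fabp5* at chr3:10012548-10016607 on the plus strand. *Lgals3* lies at chr14:47367751-47386160 and *Mmp12* at chr9:7344381-7369499, both on the plus strand. Start site windows of 300 bases from RefSeq (GRCm38.p6) were searched on both strands for the AP-1 motif, TGACTCA or TGAGTCA, and for the E-box CACGTG. The first is bound by FOS and JUN proteins and the second by MITF, TFEB and TFE3, the factors known for lysosomal genes. Of the 20 genes with the highest ratios in the members 13 had a window. The 3 of them with a motif are shown, and *Ctsd* is added as the lysosomal protease with 2 E-boxes. Capitals mark the motifs, and each sequence runs 5′ to 3′ on the strand of the gene.
Gpnmb: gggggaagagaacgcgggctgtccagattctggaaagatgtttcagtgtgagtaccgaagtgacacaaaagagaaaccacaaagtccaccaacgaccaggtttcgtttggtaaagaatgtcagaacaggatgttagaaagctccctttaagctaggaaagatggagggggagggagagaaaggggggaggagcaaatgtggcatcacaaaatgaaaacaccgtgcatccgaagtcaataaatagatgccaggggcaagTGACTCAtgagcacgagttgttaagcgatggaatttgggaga
Emp1: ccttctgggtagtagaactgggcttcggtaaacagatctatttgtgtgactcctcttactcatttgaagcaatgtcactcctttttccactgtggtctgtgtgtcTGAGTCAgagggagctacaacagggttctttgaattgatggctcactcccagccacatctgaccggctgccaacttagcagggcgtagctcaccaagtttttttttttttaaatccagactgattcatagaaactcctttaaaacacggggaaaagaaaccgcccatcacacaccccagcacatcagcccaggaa
Gdf15: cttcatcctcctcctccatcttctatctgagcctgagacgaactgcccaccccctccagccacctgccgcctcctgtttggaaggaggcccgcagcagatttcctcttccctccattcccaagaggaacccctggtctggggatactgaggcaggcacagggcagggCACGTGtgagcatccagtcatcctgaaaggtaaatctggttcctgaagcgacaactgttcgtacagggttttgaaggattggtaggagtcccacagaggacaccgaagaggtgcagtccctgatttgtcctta
Ctsd: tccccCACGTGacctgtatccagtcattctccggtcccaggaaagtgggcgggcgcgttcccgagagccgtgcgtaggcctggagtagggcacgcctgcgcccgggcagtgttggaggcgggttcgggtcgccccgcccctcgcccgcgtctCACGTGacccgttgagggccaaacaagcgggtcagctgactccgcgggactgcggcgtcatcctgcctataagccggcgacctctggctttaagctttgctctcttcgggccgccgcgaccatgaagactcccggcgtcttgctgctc
The *Gpnmb* window (chr6:49036268-49036567, plus strand) held the AP-1 motif 9 to 15 bases after the start site, and the *Emp1* window (chr6:135362681-135362980, plus strand) held it from -145 to -139. The *Gdf15* window (chr8:70632046-70632345, minus strand) held an E-box from -83 to -78, and the *Ctsd* window (chr7:142387778-142388077, minus strand) held E-boxes that began at -245 and -98. Over all 32851 windows 5.20% held the AP-1 motif and 7.15% the E-box. Among 61 windows of 50 lysosomal genes 16 (26.2%) held the E-box and 5 the AP-1 motif, and among 26 windows of 19 genes of the lipid-associated macrophage list each motif was found in 4. These matches describe the sequence only.

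The macrophage gate, which is the rule without its *Gpnmb* limit, held 1671 NASH cells and 1427 control cells. The members were set beside the 1486 NASH cells of this gate without a *Gpnmb* UMI, called Gpnmb-zero cells below. Within these, 570 cells with at least 2 UMIs of *Clec4f* and *Cd5l* formed a Kupffer gate, 233 others with at least 2 UMIs of *Ly6c2*, *Ccr2* and *F13a1* a monocyte gate, and 21 others with *Cx3cr1* and *C1qa* or *C1qb* a Cx3cr1 C1q gate. The other 662 Gpnmb-zero cells met none of these rules. Members held a median of 5294 UMIs (range 1137 to 17258), against 2605 in Gpnmb-zero cells, 4121.5 in the Kupffer gate and 3904 in the monocyte gate. The 15 markers of endothelial cells, which were abundant in the NPCs, summed to 2675 CPM in the members, where CPM are UMIs scaled to the same total in every group, against 14530 CPM in the Gpnmb-zero cells, 6733 in the Kupffer gate and 2965.4 in the monocyte gate. At least 1 UMI of these markers was found in every member, over a range of 408 to 21493 CPM. Lower values of endothelial genes in the members than in the Gpnmb-zero cells or the Kupffer gate moved with this difference, and its part in them was not tested. Doublets were not removed, and 21 barcode numbers occurred in both libraries, 2 of them in NASH members.

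Of the 2521 *Gpnmb* UMIs of all NASH cells, kept or not, the members held 2286, or 90.7%. In the control library, with 50 *Gpnmb* UMIs in all, members held 7. A NASH member had a median of 9 *Gpnmb* UMIs and a maximum of 149. The top 10 members held 37.1% of the members' *Gpnmb* UMIs and 17 members held more than 50 each. The share of members among kept cells was 3.02% (exact binomial 95% interval 2.49 to 3.62) in the NASH library and 0.0713% (0.0147 to 0.208) in the control library. These and all further intervals cover counting error only, not the spread between mice. Endothelial cells, which should lack *Gpnmb*, were used to gauge its background, the source of which was not tested. Of 1210 NASH endothelial cells outside the gate 22 (1.82%) held 1 *Gpnmb* UMI and none held 2, which allows a share of up to 0.248% at the limit of the rule. They were shallower, with a median of 1344 UMIs.

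**Figure D1:**
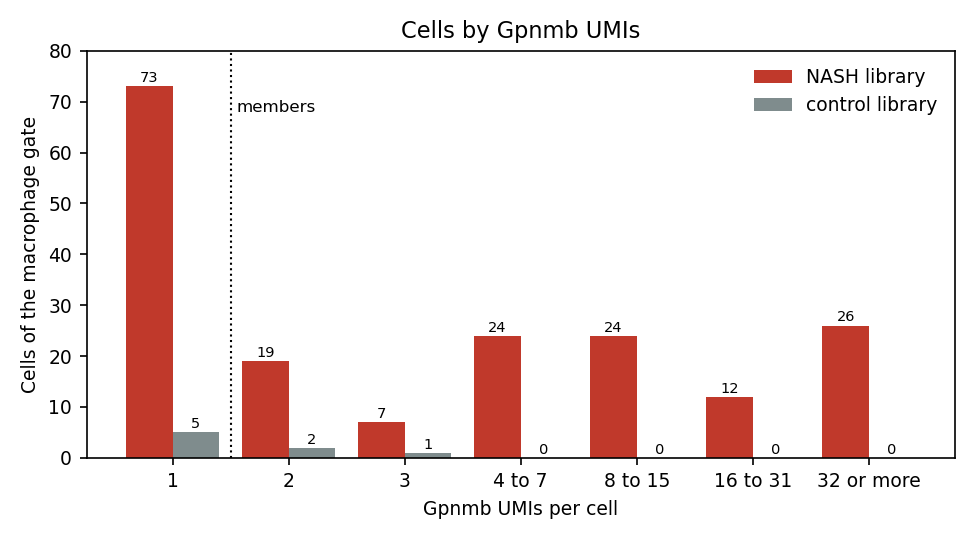
Number of cells of the macrophage gate (vertical axis) by *Gpnmb* UMIs per cell (horizontal axis), with NASH bars left and control bars right, cells without a *Gpnmb* UMI left out, and the member limit as a dotted line. In the NASH library 26 cells lie in the class of 32 or more UMIs and 73 have 1 UMI, while no control cell lies above 3.

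Cells just inside and just outside the limit of 2 *Gpnmb* UMIs were set side by side. The 19 NASH cells with 2 *Gpnmb* UMIs had 657 CPM of *Cd63*, 303 of *Fabp5* and 860 of *Cd9*, and the 73 cells with 1 UMI had 232, 97.6 and 264 CPM. *Clec4f* was at 799 CPM in the cells with 2 UMIs, against 3466 CPM in those with 1. The 7 cells with 3 UMIs lay between them for *Cd63* (467 CPM) and *Clec4f* (2049 CPM), but had 81.1 CPM of *Fabp5*. These values describe the limit only.

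The label was checked against its 5 markers, of which *Gpnmb* and *Lgals3* were part of the rule. *Cd9* was found in 75.9% of members and summed to 982 CPM (counting interval 907 to 1061), against 312 CPM in the Gpnmb-zero cells. *Fabp5* was found in 59.8% of members and summed to 1260.4 CPM (1176 to 1350), against 162 CPM. Its level varied widely, with 199 CPM in the median member, 0 CPM at the lower quartile and 1683 CPM at the upper. Endothelial cells also held both genes, at 400 CPM of *Cd9* and 377 CPM of *Fabp5*, so the shares of cells with a UMI were compared at 1 depth. With each cell thinned to 1000 UMIs, 47.3% of members and 26.6% of endothelial cells kept a *Cd9* UMI, and 36.6% of members and 27.6% of endothelial cells a *Fabp5* UMI. *Mmp12* went against the label in most members. It was found in 13 of 112 members, 42 of its 108 UMIs were in 1 cell, and its 166 CPM compared with 141 CPM in the Kupffer gate, where 151 of 366 UMIs were in 1 cell. The log2 ratio of *Mmp12* in the members to the Gpnmb-zero cells was 1.08, but 0.41 without the member with most of its UMIs.

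Relative to the Gpnmb-zero cells, 185 of 4590 genes were at least 2 times higher in the members (4.03%) and 545 were at least 2 times lower (11.9%). Genes were counted by size among those with a mean of at least 30 CPM over both groups, so a gene could pass this filter through its high group alone. The median log2 ratio of all these genes was -0.14, and ratios are log2 ratios of members to the other group unless stated. The members were chosen on the same cells, so these counts and the values of single genes describe the members and test nothing. Of the 185 genes 5 were found in fewer than 6 members, and 7 had most of their UMIs in 1 member (*Ccl22*, *Ccl5*, *Cst7*, *Cxcl1*, *Inhba*, *Nos2* and *Pla2g2d*). *Nos2*, the inducible nitric oxide synthase, had 155 of 214 UMIs in 1 of 5 cells, and without that cell its ratio to the Gpnmb-zero cells was 6.70. All 53 UMIs of *Pla2g2d*, a secreted phospholipase, came from 1 cell.

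Because the Gpnmb-zero cells mix several classes, the members were also compared with each gate. The monocyte gate was itself mixed. Its neutrophil, dendritic cell and plasmacytoid dendritic cell markers summed to 1746, 1509 and 753 CPM, against 210, 236 and 21.6 CPM in the members. The part of such cells in the differences from this gate was not tested. Against the Kupffer gate 240 of 4383 genes (5.48%) were at least 2 times higher and 368 (8.40%) lower. Against the monocyte gate 240 of 4437 genes (5.41%) were higher and 377 (8.50%) lower. Of 4136 genes tested against both gates 69 (1.67%) were higher than in both and 46 (1.11%) were lower than in both. The 69 included *Cd63*, *Fabp5*, *Cd9*, *Ctsk*, *Atp6v0d2*, *Capg*, *Cstb*, *F10*, *Emp1*, *Plin2*, *Fth1* and *Mitf*, and the 46 included *Mki67*, *Il1b*, *Ccnd1* and *Cxcl10*. Differences in the genes that define a gate, such as *Clec4f* or *Ccr2*, are set by that gate.

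**Figure D2:**
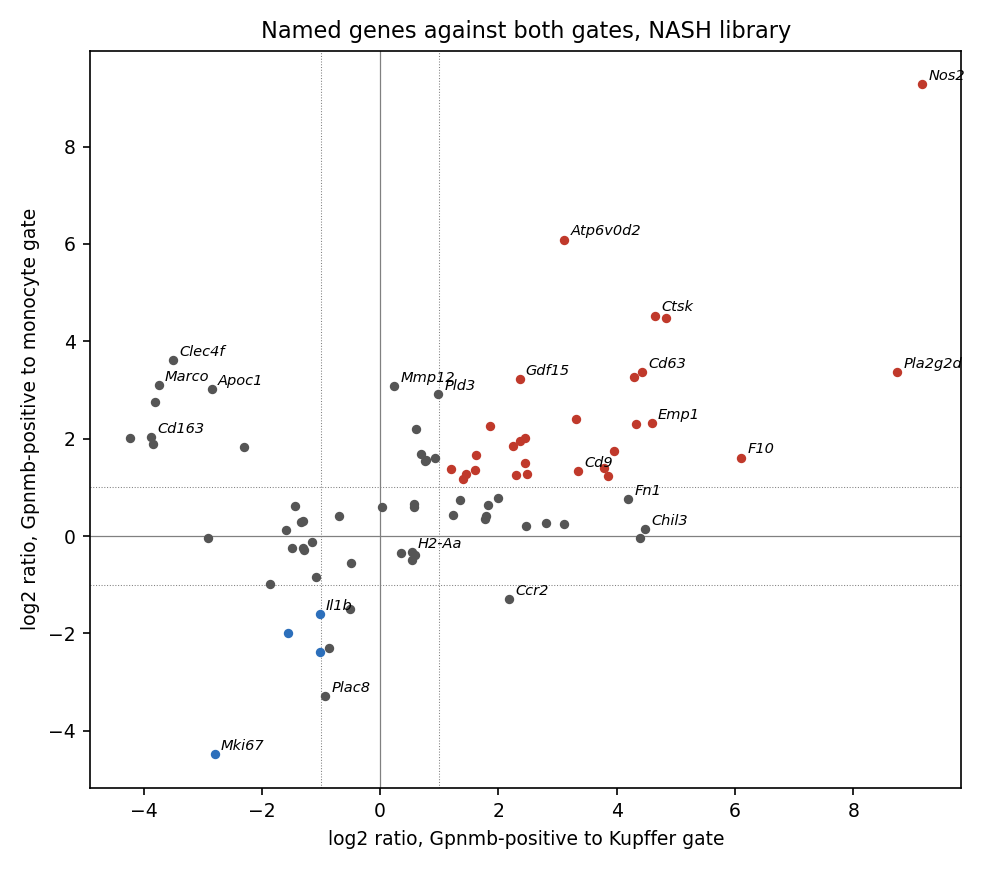
Log2 ratio of Gpnmb-positive NASH cells to the Kupffer gate (horizontal axis) and to the monocyte gate (vertical axis) for 83 named genes, with dotted lines at 2 times either way. In red are the 28 genes at least 2 times higher than in both gates, among them *Cd63* at 4.42 and 3.37, and in blue the 4 at least 2 times lower than in both. *Nos2*, found in 5 members, and *Pla2g2d*, found in 1, stand far out, and where a gate held no UMI of them (*Nos2* in the monocyte gate, *Pla2g2d* in the Kupffer gate) the position depends on the 0.5 UMI added to each sum.

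Several genes of lipid uptake and storage were higher in the members than in both gates. *Fabp5* had 1260.4 CPM in the members, against 64.4 CPM in the Kupffer gate and 131 CPM in the monocyte gate, with log2 ratios of 4.29 (4.05 to 4.54) and 3.26 (2.99 to 3.55). *Plin2*, which coats lipid droplets, was found in 88.4% of members at 1002 CPM, against 367 and 413 CPM in the same gates. The levels of *Fabp5* and *Plin2* in the members therefore exceeded both gates beyond counting error. *Lpl*, the lipoprotein lipase that releases fatty acids from triglycerides, had 4102 CPM in the members, against 2392 CPM in the Kupffer gate and 1391 CPM in the monocyte gate. *Cd36*, a scavenger receptor that takes up fatty acids and oxidized lipoproteins, had 1478 CPM, against 890 and 538 CPM in these gates, and endothelial cells held more of it, at 2194 CPM. *Plin3*, *Acsl1* and *Hilpda*, which serve lipid droplets and fatty acid activation, were also at least 2 times higher than in the Gpnmb-zero cells, at 1.14, 1.28 and 1.16. Among all tested genes 4.03% were higher and 11.9% lower than in the Gpnmb-zero cells, with a median of -0.14. Of 15 tested genes of lipid uptake and storage 6 were higher and 1 lower, with a median of 0.56. The gene that was lower, the fatty acid binding protein *Fabp4*, stood at -1.73 (-1.94 to -1.54), but it was at 3401 CPM in endothelial cells, and its ratio was 1.03 when cells with over 1% endothelial UMIs were left out of both groups. The cause of this reversal was not tested.

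Among 25 tested genes of lipid efflux and breakdown none was at least 2 times higher than in the Gpnmb-zero cells or in the Kupffer gate, and 3 and 5 were lower, with medians of -0.02 and -0.19. Over all tested genes 4.03% were higher and 11.9% lower than in the Gpnmb-zero cells, so the counts of this list lay near these shares. Against the Kupffer gate 5.48% of all tested genes were higher and 8.40% lower. *Apoe*, an apolipoprotein that helps to carry cholesterol out of macrophages, was at 14903 CPM in the members. It was at 14933 CPM in the Kupffer gate and at 3165 CPM in the monocyte gate. Against the monocyte gate 6 of 25 were higher, among them *Abca1* at 2.23 and *Abcg1* at 1.09, the cholesterol exporters, and *Nr1h3* at 1.60, which encodes the oxysterol receptor LXR alpha. *Apoc1* was at 237 CPM in the members, against 1713 CPM in the Kupffer gate and 28.7 CPM in the monocyte gate. The triglyceride lipase *Pnpla2* was at 90.9 CPM, against 275 CPM in the Kupffer gate and 83.0 CPM in the monocyte gate.

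**Figure D3:**
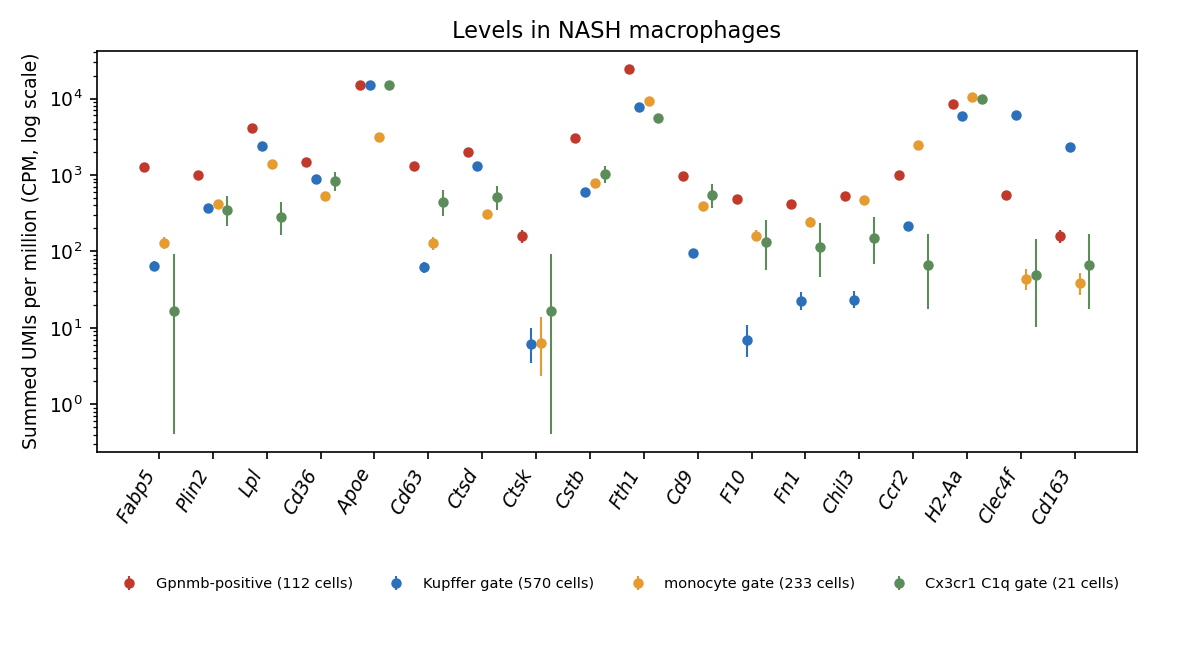
Summed level in CPM (vertical log axis) of 18 genes in 4 groups of NASH cells, from left to right Gpnmb-positive cells, Kupffer gate, monocyte gate and Cx3cr1 C1q gate, with points at the level and bars for exact Poisson 95% intervals. *Fabp5*, *Cd63*, *Ctsk*, *Cstb* and *Fth1* are highest in the Gpnmb-positive cells, *Apoe* is level with the Kupffer gate, and *Clec4f* and *Ccr2* are high in the gates that they define.

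The summed level of lysosomal genes was highest in the members, with the Kupffer gate nearest to them. The list of 63 genes, 62 of them in the files, summed to 80237 CPM in the members, against 47708 in the Gpnmb-zero cells, 65009 in the Kupffer gate and 41400 in the monocyte gate. Of 60 tested genes 11 were higher and 3 lower than in the Gpnmb-zero cells, with a median of 0.43, beside 4.03% and 11.9% of all genes. Against the Kupffer gate 5 were higher and 5 lower, with a median of 0.05, beside 5.48% and 8.40% of all genes. Against the monocyte gate 22 of 59 were higher and 3 lower, with a median of 0.77, beside 5.41% and 8.50% of all genes. The group as a whole was therefore above the monocyte gate and close to the Kupffer gate, and single genes exceeded both. *Cd63*, a tetraspanin of late endosomes and lysosomes, was found in 78.6% of members at 1328 CPM (1241 to 1420), against 61.7 CPM in the Kupffer gate and 128 CPM in the monocyte gate. Thinned to 1000 UMIs, 52.7% of members and 4.11% of endothelial cells kept a *Cd63* UMI. *Ctsk*, the collagen-cleaving protease of osteoclasts, was at 159 CPM, against 6.17 and 6.39 CPM in these gates, but it was found in 22 members with 37 of 103 UMIs in 1 cell. *Ctsd*, the aspartic protease shown above with 2 E-boxes, was at 2023 CPM in the members, against 1326 and 308 CPM. *Psap*, the precursor of the saposins that help to break down sphingolipids, was at 19470.0 CPM, against 7607 and 11643 CPM. *Ctsb* was at 11995 CPM in the members and 11379 CPM in the Kupffer gate, a ratio of 0.08 (0.04 to 0.11). *Cd164* and *Ctsf* were the lowest of the list against the Kupffer gate, at -1.98 and -2.08.

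The vacuolar ATPase, the proton pump that acidifies lysosomes, had 3 of 16 tested genes higher than in the Gpnmb-zero cells and none lower, with a median of 0.64. Over all tested genes 4.03% were higher and 11.9% lower. *Atp6v0d2*, a subunit known from osteoclasts and macrophages, was at 108 CPM in the members, against 12.3 CPM in the Kupffer gate and 1.06 CPM in the monocyte gate. It was found in 14 members only. The widely expressed subunits *Atp6v1a* and *Atp6v1c1* were found in 87.5% and 64.3% of members, with ratios of 1.23 (1.10 to 1.36) and 1.41 (1.15 to 1.65) to the Gpnmb-zero cells. Against the Kupffer gate their ratios were 0.93 and 1.40.

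Both chains of ferritin, the iron store of the cell, were more abundant in the members. *Fth1*, the heavy chain of ferritin, was at 23971 CPM in the members, against 7859 CPM in the Kupffer gate, 9306 CPM in the monocyte gate and 7169 CPM in all Gpnmb-zero cells. It was found in all 112 members, with a median of 89 UMIs. *Ftl1*, the light chain, was at 13564 CPM, against 8040 and 4656 CPM in the Kupffer and monocyte gates. *Prdx1*, a peroxiredoxin that removes peroxides, was at 3337 CPM, against 2063 and 1041 CPM in the same gates. Of 24 tested iron and antioxidant genes 5 were higher and 1 lower than in the Gpnmb-zero cells, with a median of 0.24. Of 14 glycolysis genes 6 were higher than in the Gpnmb-zero cells and none was lower, with a median of 0.80. Beside these counts of both lists, 4.03% of all tested genes were higher and 11.9% lower. *Pgam1* and *Eno1*, enzymes of the lower part of glycolysis, were at 784 and 857 CPM in the members, against 197 and 243 CPM in the Kupffer gate. Against the monocyte gate the median of the glycolysis list was 0.42, with 1 of 14 genes higher, beside 5.41% of all genes.

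Other genes with high ratios to both gates had varied functions. *Cstb*, an inhibitor of cysteine cathepsins, was found in 93.8% of members at 3065 CPM, against 596 CPM in the Kupffer gate and 787 CPM in the monocyte gate. *Capg*, an actin-capping protein, was found in 87.5% of members at 810.5 CPM, against 148 and 286 CPM. *F10*, which encodes coagulation factor X, was found in 53 members at 492 CPM, against 6.94 and 161 CPM in these gates. *Emp1*, a membrane protein whose start site window is shown above, was at 134 CPM, against 5.40 and 26.6 CPM. *Ms4a7*, known as a marker of recruited macrophages, was at 476 CPM, against 86.8 and 118 CPM. *Fam20c*, a kinase of secreted proteins, and *Gdf3*, a ligand of the TGF-beta family, were at 140.2 and 205 CPM in the members, against 8.87 and 14.7 CPM in the Kupffer gate and 41.5 and 77.7 CPM in the monocyte gate.

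Secreted factors differed gene by gene. *Gdf15*, a stress-induced cytokine, was at 174 CPM in the members, against 33.9 CPM in the Kupffer gate and 18.1 CPM in the monocyte gate, in 24 members and with 37 of 113 UMIs in 1 cell. *Fn1*, fibronectin, was found in 38 members at 418 CPM, against 22.8 and 246 CPM, so it exceeded the monocyte gate by less than 2 times (0.76, 0.51 to 1.02). *Il1rn*, the antagonist of the interleukin 1 receptor, was at 1357 CPM, against 244 and 563 CPM, while *Il1b* was at 173 CPM, against 352 and 525 CPM. A single member held 306 of the 881 *Il1rn* UMIs, and without it the ratio to the Gpnmb-zero cells was 1.48 in place of 2.06. *Il1rn* and *Il1b* therefore differed in opposite directions. Of 17 tested chemokines 10 were higher and 3 lower than in the Gpnmb-zero cells, beside 4.03% and 11.9% of all tested genes. The median of the chemokines was 1.16, but it was 0.41 when the member with most UMIs was left out for each gene. *Ccl9* was spread over many cells, found in 67.9% of members at 849 CPM, against 122 CPM in the Kupffer gate and 707 CPM in the monocyte gate. *Cxcl13*, a chemokine for B cells, was at 4.62 CPM, against 204 CPM in the Kupffer gate.

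Marker genes of the resident and recruited classes were both found. Of 11 tested Kupffer markers 9 were lower in the members than in the Gpnmb-zero cells, with a median of -2.57, beside 11.9% of all genes. The list summed to 4419 CPM, against 27262 in the Kupffer gate and 720 in the monocyte gate. *Cd163*, the haemoglobin scavenger receptor, was at 159 CPM, against 2347 and 38.3 CPM, and *Marco*, a scavenger receptor for bacteria, was at 77.0 CPM, against 1041 and 8.52 CPM. Monocyte markers summed to 2798 CPM in the members, against 852 in the Kupffer gate and 7675 in the monocyte gate. Both lists hold genes that define the gates, so these sums were partly set by the gates. *Clec4f* and *Cd5l* were at 6124 and 5598 CPM in the Kupffer gate, and *Ccr2* and *Ly6c2* at 2440 and 1258 CPM in the monocyte gate. Of the 112 members 5 held no UMI of the Kupffer list and 18 none of the monocyte list. *Chil3*, a secreted lectin of monocytes, was as high in the members as in the monocyte gate within counting error, at 529 and 477 CPM (0.15, -0.06 to 0.35), whereas *Plac8* was at 233 CPM, against 2284 CPM. *Cx3cr1*, the fractalkine receptor, was at 740 CPM, against 85.3 CPM in the Kupffer gate and 621 CPM in the monocyte gate. Of the neutrophil, dendritic cell, T cell, NK cell, B cell, plasma cell, hepatocyte, stellate cell and cholangiocyte markers each list summed to at most 236 CPM in the members, although neutrophil markers reached 8504 CPM in a single member, and *Ngp*, a granule gene of neutrophil precursors, had no UMI in them, at least 45.6 times lower than in the Gpnmb-zero cells.

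Complement genes did not differ in 1 direction. *C3*, the central component, was at 424 CPM in the members, against 43.2 CPM in the Kupffer gate and 228 CPM in the monocyte gate. *C6* and *C4b*, a terminal and an early component, were at 117 and 60.1 CPM, against 2210 and 855 CPM in the Kupffer gate. Against this gate 5 of 17 genes were higher and 9 lower, and against the monocyte gate 8 of 16 were higher and none lower. Over all tested genes 5.48% were higher and 8.40% lower than in the Kupffer gate. For the monocyte gate these shares were 5.41% and 8.50%. Among lectin receptors *Clec4n*, *Clec4d* and *Clec4e*, receptors for fungal and damaged-cell ligands, had ratios of 1.61, 4.74 and 5.37 to the Kupffer gate and 1.66, 1.15 and 0.65 to the monocyte gate, and 72 of the 367 *Clec4e* UMIs were in 1 member. MHC class II genes, which present peptides to CD4 T cells, stayed within 2 times in all 8 tested against the Gpnmb-zero cells and in all 8 against the Kupffer gate, and 3 of 9 were lower than in the monocyte gate. *H2-Aa* was at 8442 CPM in the members, against 5835 CPM in the Kupffer gate and 10630.0 CPM in the monocyte gate.

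Of 26 transcription factors of macrophages 5 were higher and 1 lower than in the Gpnmb-zero cells, with a median of 0.28. *Mitf*, a factor of lysosomal and *Gpnmb* transcription, was at 134 CPM in the members, against 58.6 CPM in the Kupffer gate and 51.1 CPM in the monocyte gate, with ratios of 1.20 (0.80 to 1.58) and 1.38 (0.87 to 1.93). It was found in 52 members. *Egr2*, an early response factor, was at 159 CPM, against 32.4 and 66.0 CPM. *Klf2*, which restrains inflammatory genes, was at 162 CPM, against 590.2 and 321 CPM. None of 24 tested interferon-stimulated genes was at least 2 times higher than in the Gpnmb-zero cells and 3 were lower, with a median of -0.20. Over all tested genes 4.03% were higher and 11.9% lower, with a median of -0.14, so this list lay near the values of all genes. Cell cycle genes summed to 723 CPM in the members, against 1533 in the Gpnmb-zero cells, 1332 in the Kupffer gate and 2708 in the monocyte gate. The Cx3cr1 C1q gate was lower than the members, at 609 CPM. *Mki67* was found in 5 members.

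**Figure D4:**
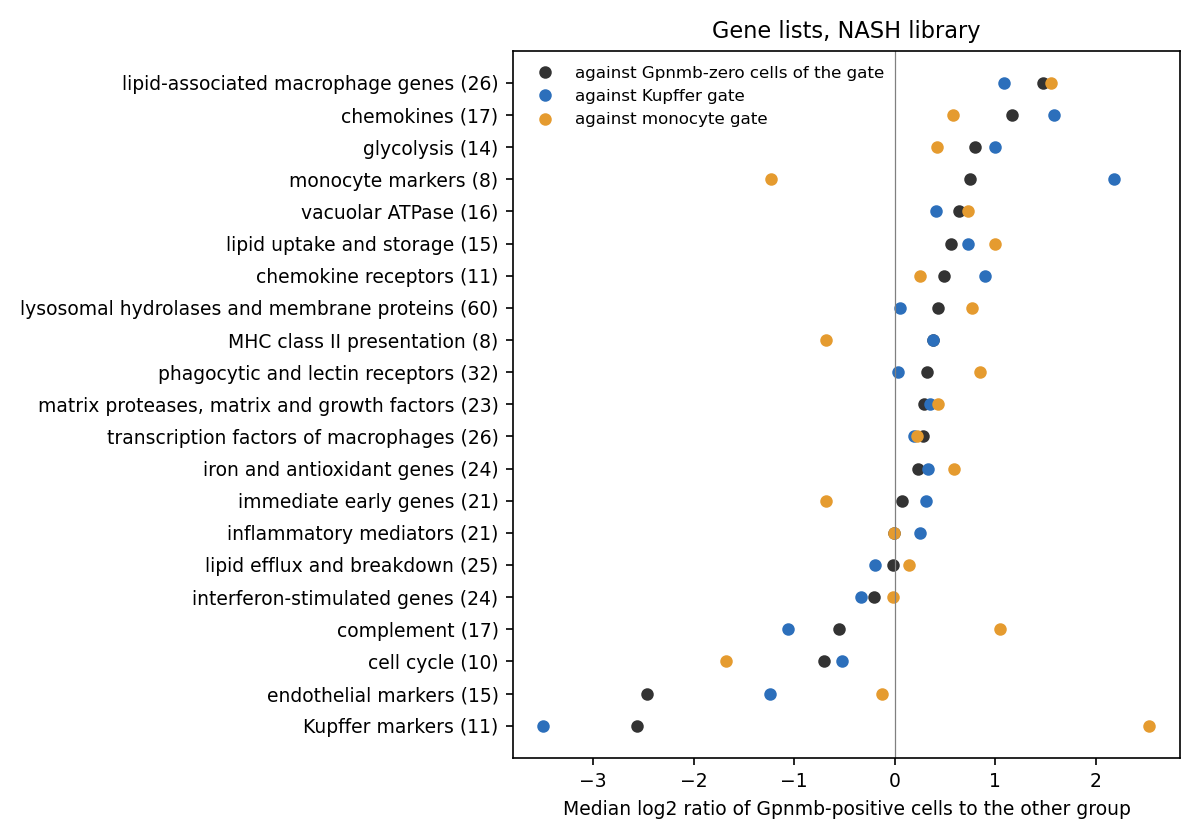
Median log2 ratio of Gpnmb-positive NASH cells (horizontal axis) to the Gpnmb-zero cells (black), the Kupffer gate (blue) and the monocyte gate (orange) for 21 gene lists, with the number of genes tested against the Gpnmb-zero cells in brackets. The lipid-associated macrophage list lies at 1.09 or above in all 3 comparisons, lipid efflux lies near 0, and the Kupffer list lies at -2.57, -3.50 and 2.54. The Kupffer list holds genes that define the gates, so its values against them are partly set by the gates.

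The list of 26 lipid-associated macrophage genes contains *Gpnmb* and *Lgals3*, which chose the members, and had been compiled with earlier results of these data known. Its genes were higher in 18 and lower in 1 of 26 against the Gpnmb-zero cells (median 1.47). They were higher in 13 against the Kupffer gate (1.09) and in 20 against the monocyte gate (1.55). Over all tested genes 4.03%, 5.48% and 5.41% were higher in these comparisons. The summed level was 69952 CPM in the members, with a range of 17976 to 137275 over single members, against 45538.5 in the Kupffer gate and 19586 in the monocyte gate.

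Members differed among themselves with their *Gpnmb* level. They were divided at 4 and 16 UMIs, limits that were set after the data had been seen, into 26, 48 and 38 cells with median depths of 4977, 4971 and 6472.5 UMIs. From the lowest to the highest class *Fabp5* was at 229, 780.1 and 2294 CPM, *Cd63* at 594, 942 and 2105 CPM, and *Plin2* at 607, 942 and 1282 CPM. *Ctsd* and *Fth1* were nearly level in the lower classes, at 1397 and 1540 CPM and at 16101 and 17512 CPM, and stood at 2829 and 34450 CPM in the highest. *H2-Aa* went the other way, at 12146 CPM, 8835 CPM and 5965 CPM. So did the sum of *Clec4f*, at 1215, 506 and 192 CPM, but it was found in only 13, 11 and 8 cells. The median cell held 1328, 1680 and 1364 CPM of the Kupffer markers, without such an order. By sums *Apoe* differed little, at 15615, 15864 and 13605 CPM, while its median cell held 10385, 9851 and 7005 CPM. *Ccr2* was highest in the middle class, at 648, 1531 and 681 CPM. Endothelial markers summed to 4258, 2905 and 1559 CPM in these classes, and their part in the order was not tested. *Gpnmb* itself takes a share of the UMIs, 7082 CPM in the highest class.

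**Figure D5:**
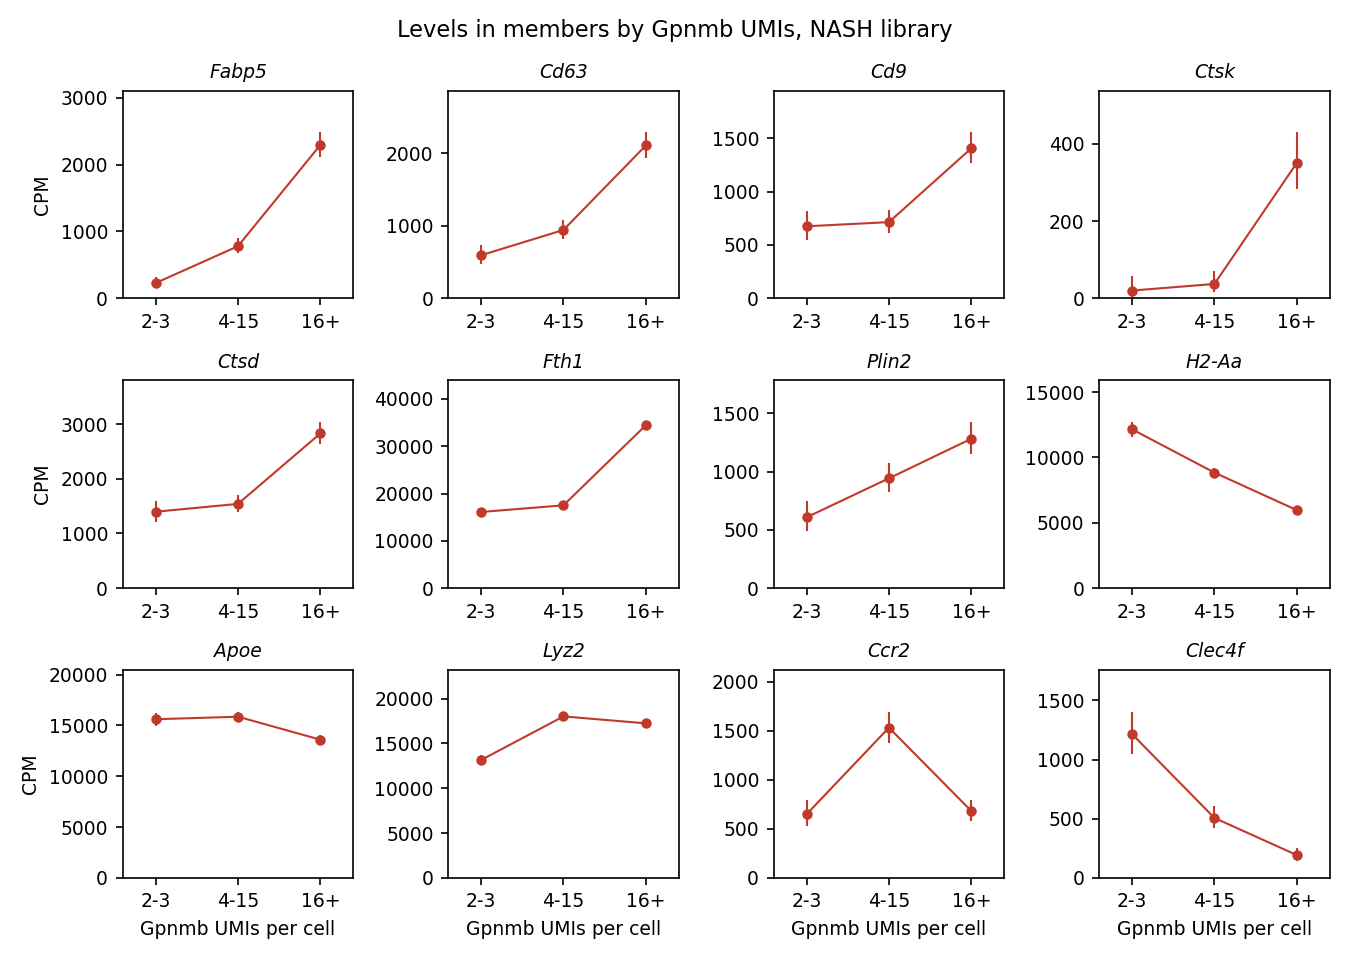
Summed level in CPM (vertical axes from 0) of 12 genes in Gpnmb-positive NASH cells with 2 to 3, 4 to 15 and 16 or more *Gpnmb* UMIs (horizontal axes, 26, 48 and 38 cells), with exact Poisson 95% intervals. *Fabp5*, *Cd63*, *Ctsd*, *Fth1* and *Plin2* are highest in the cells with most *Gpnmb*, and *H2-Aa* and *Clec4f* are lowest there.

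Members were also divided by the genes of the gates. With at least 2 UMIs as the limit, 21 members held only the Kupffer genes *Clec4f* and *Cd5l*, 61 only the monocyte genes *Ly6c2*, *Ccr2* and *F13a1*, 13 both and 17 neither. Kupffer genes were also found in endothelial cells. Of these shallower cells 5.70% held 2 or more UMIs of *Clec4f* and *Cd5l*, against 30.4% of members. Whether these UMIs came from free RNA or doublets was not tested. With all cells thinned to 1000 UMIs these shares were 13.4% of members, 2.17% of endothelial cells and 82.8% of the Kupffer gate. At 10 or more UMIs, 12 members (10.7%) and 414 of 570 cells of the Kupffer gate passed, and none of 1210 endothelial cells, which allows up to 0.248%. Monocyte genes at 2 or more UMIs were found in 66.1% of members and 0.496% of endothelial cells, or in 43.8% and 0.342% after thinning. The members with Kupffer genes only (the Kupffer set) had a median depth of 8100 UMIs and those with monocyte genes only (the monocyte set) 5072 UMIs. *Gpnmb* was at 1069 CPM in the median cell of the Kupffer set and 2024 CPM in that of the monocyte set. *Fabp5* summed to 882 CPM in the Kupffer set and 1483 CPM in the monocyte set, but the median cells held 225 and 227 CPM. At these unequal depths 61.9% and 65.6% of cells held a UMI. How many cells carried the difference of the sums was not tested. By sums, *Cd9* was at 375 CPM in the Kupffer set and 1026 CPM in the monocyte set, and *Cd63* at 1354 and 1054 CPM, while their median cells held 282 and 420.4 CPM of *Cd9* and 872 and 544 CPM of *Cd63*. *Apoe* was at 22073 CPM in the Kupffer set and 11614 CPM in the monocyte set, and *Fn1* and *Chil3* were at 115 and 97.9 CPM, against 610.3 and 826 CPM. The 12 members with 10 or more Kupffer UMIs held 3054 CPM of *Clec4f*, 28319 CPM of *Apoe* and 275 CPM of *Fabp5*. Doublets of a Kupffer cell and a monocyte-derived cell could enter these sets, and their part was not tested.

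The 3 control members had 12072, 4103 and 3264 UMIs and 3, 2 and 2 *Gpnmb* UMIs. None held *Mmp12*, and 1 of the 3 held UMIs of *Cd9*, *Fabp5* and *Cd63*, with 3, 1 and 5 of each. All held *Ccr2*, with 9, 15 and 41 UMIs. With 7 *Gpnmb* UMIs in all they do not define a class, and no comparison of members between diets was made beyond their number.

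Genes that marked the members were also compared between diets in Gpnmb-zero cells of the same gate, as NASH to control log2 ratios. In the Kupffer gates (570 and 519 cells) *Fabp5* was at 64.4 CPM in NASH and 22.8 CPM in control cells (1.49, 1.09 to 1.92), *Cd63* at 61.7 and 25.4 CPM (1.28, 0.88 to 1.69) and *Mmp12* at 141 and 23.8 CPM (2.56, 2.20 to 2.95), with 151 of the 366 NASH UMIs of *Mmp12* in 1 cell. *Fth1* and *Lpl* were close to level there, at 0.05 and -0.17. Genes of other cell types moved with these values, since endothelial markers summed to 6733 CPM in the NASH and 3924 CPM in the control Kupffer gate, and *Fabp4*, *Lyve1* and the monocyte gene *Ly6c2* had ratios of 1.69, 1.72 and 1.77. Their part in the ratio of *Fabp5*, which endothelial cells also held, or of the other genes was not tested. In the monocyte gates (233 and 243 cells) *Lpl* was at 1391 CPM in NASH and 212 CPM in control cells (2.71, 2.49 to 2.94), *Cstb* at 787 and 292 CPM (1.43) and *Plin2* at 413 and 178 CPM (1.21). *Apoe* was at 3165 and 1048 CPM (1.59), and *Fn1* at 246 and 416 CPM (-0.76). Endothelial markers summed to 2965.4 CPM in the NASH and 2404 CPM in the control monocyte gate. Other lists differed more between these 2 gates. Neutrophil markers summed to 1746 CPM in NASH and 4496 CPM in control cells. Plasmacytoid dendritic cell markers summed to 753 and 1485 CPM, and Kupffer markers to 720 and 375 CPM. The part of these cells in the ratios of the monocyte gates was not tested. Levels in both NASH gates stayed below those of the members for *Fabp5*, *Cd63*, *Plin2*, *Lpl* and *Cstb*. Cells that lost their *Gpnmb* reads to shallow depth can be among these gates, and their number was not estimated. With 1 library per diet the diet and the library cannot be told apart.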

How the data were processed

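Liver NPCs of 1 NASH and 1 control library, each a pool of 3 mice, were analysed. The authors made the deposited UMI counts per gene and cell with the BD Rhapsody whole transcriptome pipeline and the GRCm38 genome, without normalization, and which gene annotation they counted on is not given in the sources here. Genes (16383, alphabetical up to *Rad54l2*, 12 of them with dates in place of symbols) were analysed, and later genes such as *Spp1* and *Trem2* were not analysed here, so totals per cell cover part of each library. The NASH table had no header and was named by the control order (correlation of gene totals across genes 0.973, and 0.471 when shifted by 1 column). Kept cells totalled 9249745 UMIs in the NASH library and 11399278 in the control library, with medians of 1654 and 1683 per cell.

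The authors' filter on mitochondrial UMIs was not applied. UMIs were summed per group of cells and scaled to CPM. Log2 ratios had 0.5 UMI added to each sum, and their intervals came from an exact binomial share. CPM carry exact Poisson and shares exact binomial (Clopper-Pearson) 95% intervals. Genes with a mean of at least 30 CPM over both groups were counted at 2 times or more either way, with no test because each diet had 1 library. A gene without a UMI in a group was bounded at 3 UMIs over the group. For shares of cells, each cell was thinned to 1000 UMIs and shallower cells were left out. The scripts were tested on simulated counts.

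The members, the 31 gene lists and the gates were chosen with earlier results of these data known. Named genes were the 5 markers, the 20 highest and 12 lowest ratios to the Gpnmb-zero cells by the interval bound nearest 0, and up to 4 genes per list. Other genes were named after their values had been seen. Alternatives changed the limits of the rule, the filter, the scaling, the added UMIs and the cells compared. Python 3.11.15, numpy 2.4.6, scipy 1.17.1 and pandas 2.3.3 were used.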

Additional observations from a re-analysis of the deposited data

Results flagged for a closer look

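In the NASH library 11 of 2039 kept cells outside the macrophage gate (0.539%, exact binomial 95% interval 0.270 to 0.963) held 2 or more *Gpnmb* UMIs, against 5 of 2782 (0.180%) in the control library. They came up because their signal lies in cells that the comparisons do not use. Of the 11 NASH cells 6 had 60 to 198 UMIs of the macrophage genes and 1 UMI of *Cd3e* or *Cd79a*, and 3 had 17 to 26 UMIs of T cell markers. The other pair had 36 and 8 *Gpnmb* UMIs with 0 and 1 macrophage UMIs, and 24 and 32 UMIs of *Cstb*. Of the 5 control cells 3 had 5 to 15 UMIs of T cell markers, 1 had 232 UMIs of stellate cell markers and 1 had 967 UMIs of plasma cell markers.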

How the results depend on the processing

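The share of members in the NASH library was 4.99% with 1 or more *Gpnmb* UMIs as the limit (185 cells), 3.78% among cells of 1000 or more UMIs and 3.91% with 1 or more *Gpnmb* UMIs after thinning to 1000 UMIs (116 cells), against 3.02% as reported. The number of genes at least 2 times lower than in the Gpnmb-zero cells, 545 as reported, was 286 with a macrophage sum of 5 or more, 302 against the 3 gates together (824 cells) and 280 with endothelial markers under 1% of UMIs. It was 1100 with a filter at 10 CPM and 210 at 100 CPM, where the number of higher genes was 113 in place of 185 because fewer genes were tested. Setting the median ratio to 0 gave 244 higher and 461 lower genes, and leaving out the 2 members of shared barcode numbers gave 189 and 546. *Fabp4* reversed to 0.14 with a macrophage sum of 5 or more and to 1.03 with endothelial markers under 1%, *Gpr182* to 0.049 under that same limit, and *Pla2g2d* to -0.93 without the cell that held it. The causes were not tested. Of 96 named genes at least 2 times apart, between 84 and 96 stayed so under each alternative. Of 333 values of list medians under the alternatives 304 lay within 1.5 times of the reported ratio and 29 did not. A reversal was counted only for lists with a reported median log2 ratio of at least 1 either way, and 0 of these reversed. Lists with smaller medians could change sign uncounted. Phagocytic and lectin receptors, for example, had a median of 0.32 as reported and -0.04 against the 3 gates together. Leaving out cells with UMIs of other lineages left no members and could not be run. The alternatives on the 3 gates, endothelial UMIs, the leading member of each gene and shared barcodes were chosen after seeing the data. No paired analysis was possible because each diet had 1 library. Genes with few UMIs over the 112 members are the least precise.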
